A study of Mus musculus with 9 samples.

Results

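The transcripts described here are those of 10 genes of the AP-1 family and of the early stress response. They were chosen by symbol from a fixed list made with earlier results of these data known. The genes are Fos, Fosb, Fosl2, Jun, Junb, Jund, Batf, Atf3, Ier2 and Zfp36. Each had 1 row in the deposited table of 39253 genes, and all 10 had enough counts to be tested. They were measured by RNA sequencing in CD4+ T cells taken on day 9 of experimental autoimmune encephalomyelitis (EAE), a mouse disease in which immunisation turns T cells against myelin, in 4 wildtype mouse samples and 5 labelled ERα KO, a loss of estrogen receptor alpha (below, knockout). Batch 1 held wildtype replicates 1 and 2 and knockout replicates 1, 2 and 3, and batch 2 held wildtype replicates 3 and 4 and knockout replicates 4 and 5. Every sample, wildtype included, came from mice with EAE, and no sample without EAE was analysed here. The labels do not give the cells in which the receptor was lost, the Cre driver or deleted exon, the strain, sex or age of the mice, the organ the cells came from, or whether samples were single or pooled animals. The series title concerns dendritic cells, whereas the cells sequenced were T cells.

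AP-1 is a pair of bZIP proteins held together by a leucine zipper, most often a FOS protein with a JUN protein, that binds a short DNA site. Most FOS and JUN genes belong to the immediate early genes (Jund, which is made constitutively, does not): mRNAs that are scarce in resting cells, appear within minutes of a T cell receptor signal, cytokine, heat or mechanical stress without new protein synthesis, and decay quickly. In T cells AP-1 works with NFAT to switch on cytokine genes, BATF pairs with JUN proteins and IRF4 in differentiating T helper cells, and ZFP36 (tristetraprolin) binds AU-rich elements and speeds the decay of cytokine mRNAs and of early gene mRNAs. These mRNAs are also known to appear in cells while they are dissociated and sorted.

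The start regions of 6 members are shown because the text turns on them: Fos, Fosb, Jun and Junb are the classical AP-1 genes, Zfp36 separated little in batch 2, and the groups of Batf overlapped there. The sequences are from RefSeq on GRCm38.p6, which matched 9 of the 10 members (Ier2 was the exception), and run from 250 bases before to 50 bases after the annotated start, 5′ to 3′ on the gene's strand. Capitals mark matches, on either strand, to the cyclic AMP response element TGACGTCA, its 5-base core TGACG, the AP-1 site TGAGTCA, the AP-1-like site TGACATCA, and the CArG box that serum response factor binds.
Fos (chr12:85473640-85473939, + strand): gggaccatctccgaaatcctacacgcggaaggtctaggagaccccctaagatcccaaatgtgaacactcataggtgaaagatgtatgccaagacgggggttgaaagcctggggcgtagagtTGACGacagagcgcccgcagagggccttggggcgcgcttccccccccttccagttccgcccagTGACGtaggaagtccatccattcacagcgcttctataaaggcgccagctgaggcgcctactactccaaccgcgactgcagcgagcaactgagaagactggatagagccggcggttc
Fosb (chr7:19309996-19310295, - strand): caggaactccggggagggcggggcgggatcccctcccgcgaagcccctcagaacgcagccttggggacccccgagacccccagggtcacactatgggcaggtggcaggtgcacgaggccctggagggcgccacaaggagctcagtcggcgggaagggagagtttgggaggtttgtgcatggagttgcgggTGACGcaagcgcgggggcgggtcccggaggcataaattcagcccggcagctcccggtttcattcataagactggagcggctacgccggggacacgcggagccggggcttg
Jun (chr4:95052173-95052472, - strand): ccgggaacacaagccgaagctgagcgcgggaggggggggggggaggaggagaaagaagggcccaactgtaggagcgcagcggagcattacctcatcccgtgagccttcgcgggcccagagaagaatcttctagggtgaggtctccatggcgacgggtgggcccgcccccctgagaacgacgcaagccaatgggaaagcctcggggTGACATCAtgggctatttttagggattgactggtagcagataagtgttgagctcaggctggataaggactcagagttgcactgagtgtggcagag
Junb (chr8:84978699-84978998, - strand): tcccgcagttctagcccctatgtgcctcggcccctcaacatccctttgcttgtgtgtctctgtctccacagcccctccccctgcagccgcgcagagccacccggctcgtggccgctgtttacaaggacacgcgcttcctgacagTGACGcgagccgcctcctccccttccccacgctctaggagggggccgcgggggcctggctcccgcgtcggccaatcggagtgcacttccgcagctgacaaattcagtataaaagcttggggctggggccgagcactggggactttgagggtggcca
Zfp36 (chr7:28379179-28379478, - strand): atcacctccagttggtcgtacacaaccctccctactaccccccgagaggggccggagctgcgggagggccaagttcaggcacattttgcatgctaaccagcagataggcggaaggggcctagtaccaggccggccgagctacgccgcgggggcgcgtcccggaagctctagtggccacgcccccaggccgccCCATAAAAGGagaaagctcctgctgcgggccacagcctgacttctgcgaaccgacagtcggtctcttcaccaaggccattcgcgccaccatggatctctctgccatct
Batf (chr12:85686470-85686769, + strand): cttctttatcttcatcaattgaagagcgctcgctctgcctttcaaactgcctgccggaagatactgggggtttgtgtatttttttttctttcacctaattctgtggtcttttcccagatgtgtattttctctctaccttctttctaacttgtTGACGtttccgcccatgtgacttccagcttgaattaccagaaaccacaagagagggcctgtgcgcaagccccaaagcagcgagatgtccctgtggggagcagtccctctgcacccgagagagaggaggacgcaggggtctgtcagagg
The core TGACG was found in 5 of the 9 matched members (Fos, Fosb, Junb, Batf and Atf3) and in 20.8% of all 32851 start regions of this length. In Fos it occurred at -129 and at -66, counted from the start site to the first base of the match. TGACATCA was found in 1 of the 9, Jun, at -45, and in 3.62% of all start regions. A CArG box was found in 1 of the 9, Zfp36, at -58, and in 1.63% of all. The full TGACGTCA (1.79% of all) and TGAGTCA (5.2% of all) were in none of the 9 windows. These matches describe letters in a window and were not tested for binding. Sites more than 250 bases before the start were not searched, in Fos or in any other member.

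The level of each mRNA is given in CPM, its counts scaled to a library total of 1000000. Set on a per-length scale (CPM divided by the length in kilobases of the longest GENCODE M21 protein-coding transcript), Jund was the most abundant member, with a median of 447 CPM per kb over the 9 libraries and a range of 379.8 to 573. Junb had a median of 241.5 (range 121 to 347), Jun 189 (84.2 to 257) and Zfp36 166.5 (120.1 to 205). These 3 ranges overlapped. Ier2 stood at 78.1 (54.1 to 83.4), Batf at 47.9 (22.7 to 74.5) and Fos at 46.9 (14.95 to 91.6), again overlapping. Fosb followed at 24.8 (5.63 to 76.1), Fosl2 at 9.50 (6.38 to 13.3) and Atf3 at 1.74 (0 to 5.09). The JUN genes and Zfp36 each had at least 1717 counts in every library, while Atf3 had 0 to 455.

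Depth differed between the batches: libraries of batch 1 held about 4926350 to 11296600 counts and those of batch 2 about 45013000 to 69844700. Esr1, the targeted gene, had 101 and 76 counts in the wildtype libraries of batch 2 and 9 and 14 in its knockout libraries. In batch 1 it had 55 and 80 counts in wildtype and 72, 55 and 66 in the libraries labelled knockout, so the labels of batch 1 could not be checked this way. The CD4 T cell list was detected in full among its 7 genes in the table, with Cd4 at 925 to 1321 CPM and Cd3e at 1071 to 1522 CPM. Xist was at 1745 to 2680 CPM in 4 libraries of batch 1, at 30.4 CPM in the library labelled knockout replicate 3 and no higher than 0.289 CPM in batch 2, and the Y-linked Ddx3y was at 0 counts in those 4. Ddx3y had 55.4 CPM in knockout replicate 3, while all 4 libraries of batch 2 had 93.6 to 107 CPM. Knockout replicate 3 therefore stood apart from the rest of batch 1 in these sex-linked transcripts. The log2 fold changes of the members in batch 1 are summarised with and without it. Other results of batch 1 include it unless stated. Of all counts, 0.0580% to 0.257% in batch 1 and at most 0.00371% in batch 2 fell on receptor genes of smell and taste, which T cells do not use. The share of 0.257% was that of the library labelled knockout replicate 3, and the rest of batch 1 had at most 0.155%.

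In batch 2, knockout CD4+ T cells had less of 9 of the 10 mRNAs in both knockout libraries than in either wildtype library. The separation was widest for Fosb, Fos and Atf3, intermediate for Jun and Junb, and small for Jund, Ier2, Fosl2 and Zfp36. Batf was the member whose groups overlapped. All 10 log2 fold changes were below 0, as were 52.2% of those of all genes tested. For comparison, 20.5% of the 15910 genes tested in batch 2 were lower in both knockout libraries and 19.6% were higher in both. In bulk samples, fewer cells of a type and less RNA per cell cannot be told apart.

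**Figure D1:**
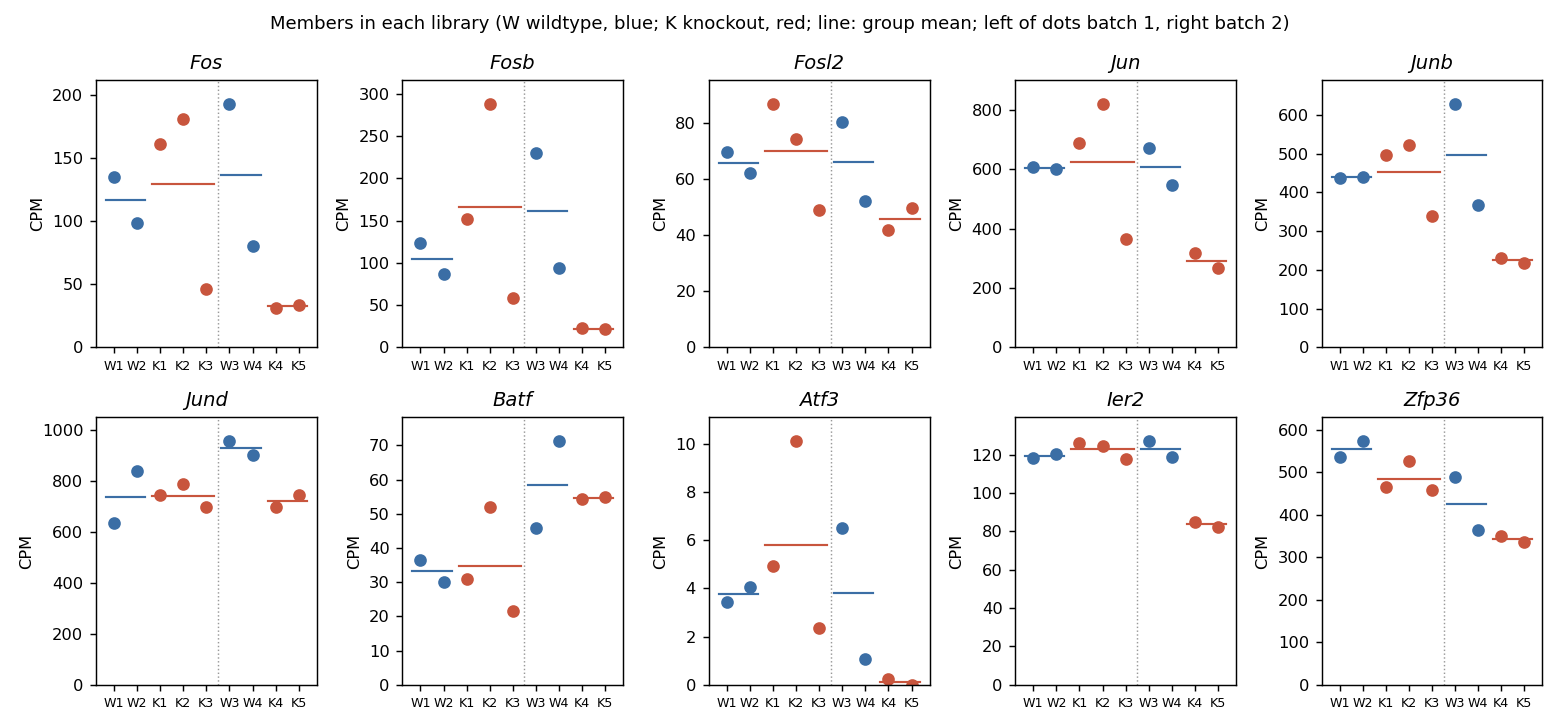
Level of each member in every library, in CPM on linear axes that start at 0; blue points are wildtype (W), red points knockout (K), horizontal lines are group means within a batch, and the dotted line parts batch 1 from batch 2. In batch 2 both red points lie below both blue points in 9 panels, all but Batf, while in batch 1 the red points K1 and K2 mostly lie at or above the blue points and K3 lies lowest in 9 panels.

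Among the FOS genes, Fos, the partner of JUN in classical AP-1, was measured at 193 CPM in wildtype replicate 3, 80.3 CPM in wildtype replicate 4, and 31.5 and 33.9 CPM in knockout replicates 4 and 5. The wildtype libraries differed widely from each other, the knockout libraries hardly at all, and the groups did not overlap. The log2 fold change of Fos, knockout against wildtype, was -2.08 ± 0.51 (SE; edgeR quasi-likelihood test, unadjusted p = 0.0166, adjusted p = 0.625). Fosb, whose protein has an activating long form and a stable short form, was at 230.1 and 94.0 CPM in wildtype, against 23.4 and 21.3 CPM in knockout. Again wildtype replicate 3 was the high library, and even wildtype replicate 4 was well above both knockout libraries. Its log2 fold change was -2.87 ± 0.54 (edgeR adjusted p = 0.618). Fosl2, which encodes FRA2, a FOS protein without a strong activation domain, was at 80.3 and 52.3 CPM against 41.7 and 49.6 CPM. Its wildtype replicate 4 lay just above knockout replicate 5, and the log2 fold change was -0.54 ± 0.25 (edgeR adjusted p = 0.689).

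Jun, the prototype JUN gene, was at 671 and 546 CPM in the wildtype libraries of batch 2 and at 317 and 269 CPM in the knockout libraries. Here the wildtype libraries were close, 1.23-fold apart, and the gap between the genotypes was wider than the spread within either. Its log2 fold change was -1.06 ± 0.16 (edgeR unadjusted p = 0.000957, adjusted p = 0.618), the 20th smallest p among the genes of that test. Junb, which can oppose JUN and is needed for Th17 cells, was at 628 and 368 CPM against 229.7 and 219 CPM, with -1.16 ± 0.30 (edgeR adjusted p = 0.625). Most of its spread lay in wildtype replicate 3. Jund, the JUN gene that varied least between these libraries, was at 956 and 903 CPM against 699.6 and 746 CPM, a separation without overlap but of small size, -0.36 ± 0.10 (edgeR adjusted p = 0.625).

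Atf3, a stress-induced bZIP repressor, was the scarcest member, with 455 and 48 counts in wildtype and 14 and 0 in knockout, or 6.51, 1.07, 0.223 and 0 CPM. Its level in wildtype replicate 3 was 6.11 times that in wildtype replicate 4, so the log2 fold change of -5.05 ± 1.71 (edgeR adjusted p = 0.625) rests on 1 high wildtype library and on a knockout library with 0 counts (3 counts there would be 0.0549 CPM). Batf, the bZIP factor of Th17 and follicular helper differentiation, was at 45.7 and 71.1 CPM in wildtype, against 54.4 and 54.8 CPM in knockout. Both knockout libraries thus lay between the wildtype libraries, and here wildtype replicate 3 was the lowest of the 4, with -0.08 ± 0.20 (edgeR adjusted p = 0.949).

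Ier2, an immediate early gene that encodes a small nuclear protein, was at 127 and 119 CPM in wildtype, against 84.9 and 82.3 CPM in knockout. Both groups were tight and did not overlap, and Ier2 differed by -0.55 ± 0.11 on the log2 scale (edgeR unadjusted p = 0.00344, adjusted p = 0.618). Zfp36 was at 489 and 363 CPM against 349 and 335 CPM, and wildtype replicate 4 lay much nearer to the knockout libraries than to wildtype replicate 3. Its log2 fold change was -0.32 ± 0.18 (edgeR adjusted p = 0.719).

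**Figure D2:**
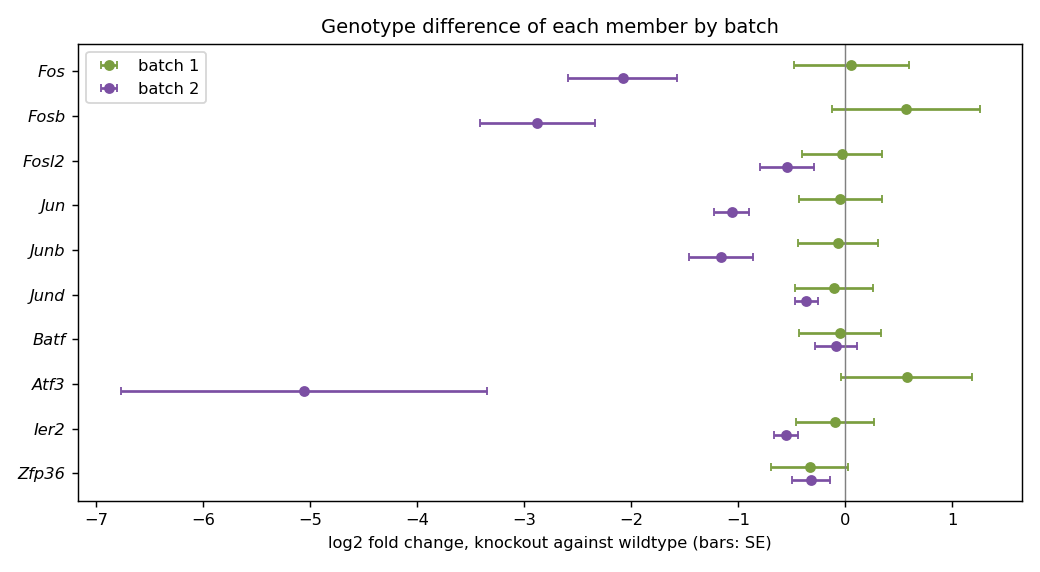
Log2 fold change of each member, knockout against wildtype, in batch 1 (green) and batch 2 (purple), with bars of 1 standard error from the edgeR fit. All 10 purple points lie below 0, from -0.08 for Batf to -5.05 for Atf3, while the green points lie between -0.33 and 0.58.

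None of the 10 members passed an adjusted p of 0.05 in batch 2 with edgeR, where 0% of the 15910 genes tested passed. At an unadjusted p under 0.05, 7 members were lower (all but Fosl2, Batf and Zfp36) and 0 higher, against 4.97% and 2.8% of all genes tested. The members were chosen with earlier results of these data known, so a difference from the share of all genes is not independent support. The median log2 fold change of the 10 was -0.81, and that of all genes tested was -0.02. DESeq2 on the same libraries called 6 members, all lower (Fos, Fosb, Jun, Junb, Atf3 and Ier2), where 1.69% of all genes were called lower, and limma-voom called 0. The DESeq2 adjusted p was 1.16e-09 for Fosb, 9.03e-06 for Jun, 5.59e-05 for Fos, 0.00432 for Junb, 0.00844 for Ier2 and 0.0200 for Atf3. Without a filter on low counts, edgeR called 1 member, Jun (adjusted p = 0.0259), where 0.161% of genes were called.

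The number of members called changed with the wildtype library left out. Without wildtype replicate 3, the library highest in 9 of the 10 members, edgeR called 4 members, Fos, Fosb, Jun and Junb, where 1.62% of genes were called. The log2 fold changes were then -1.26 ± 0.13 for Fos (edgeR adjusted p = 0.00585), -2.03 ± 0.13 for Fosb (0.00061), -0.86 ± 0.11 for Jun (0.0122) and -0.67 ± 0.09 for Junb (0.0127). Those of the others were -0.05 for Zfp36, -0.15 for Fosl2, -0.28 for Jund, -0.34 for Batf, -0.47 for Ier2 and -3.17 for Atf3. Without wildtype replicate 4, edgeR called 8 members, all but Batf and Atf3, where 5.21% of genes were called, and Batf then had 0.22. Each of these runs has 1 wildtype library, taken to have the spread of the knockout pair. Without knockout replicate 4 or without knockout replicate 5, 0 members were called, as in the full comparison, and all 10 stayed below 0.

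In batch 1 the same comparison gave another picture. The wildtype libraries were close in Jun, Junb and Ier2, whereas for most members the 3 libraries labelled knockout ran from the highest to the lowest level of the batch. Jun stood at 606 and 602 CPM in the 2 wildtype libraries, and at 689, 819 and 366 CPM in the libraries labelled knockout replicates 1, 2 and 3. Junb was at 437 and 441 CPM in wildtype, and at 497, 522 and 339 CPM in those labelled knockout. Fos was at 135 and 98.9 CPM, then at 161, 181 and 46.6 CPM. For each of these 3 genes the wildtype libraries lay inside the range of the libraries labelled knockout.

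Fosb in batch 1 was at 123 and 86.9 CPM in wildtype, against 152, 288 and 58.2 CPM in the libraries labelled knockout. Fosl2 was at 69.7 and 62.1 CPM, then at 86.9, 74.3 and 48.9 CPM. Atf3 had 39 and 20 counts in wildtype and 37, 88 and 12 in those labelled knockout, or 3.45, 4.06, 4.92, 10.1 and 2.37 CPM. In all 3 the library labelled knockout replicate 3 was lowest and 1 of the other 2 highest. Batf, at 36.6 and 30.0 CPM in wildtype against 30.9, 51.9 and 21.7 CPM, also had its lowest level in knockout replicate 3 and its highest in knockout replicate 2.

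The remaining members spanned narrower ranges in batch 1. Ier2 was at 118 and 120.4 CPM in wildtype, against 126, 125 and 118 CPM in the libraries labelled knockout, all within 1.07-fold. Jund was at 633 and 841 CPM in wildtype, against 746, 787 and 697 CPM. Zfp36 was at 536 and 572 CPM against 465, 526 and 458 CPM, the single member whose groups did not overlap in batch 1, where 5.19% of all genes tested were lower in every library labelled knockout.

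No member passed in batch 1, where edgeR called 0.126% of 24600 genes, and 0 of the 10 had an unadjusted p under 0.05 (1.97% of all genes did). The log2 fold changes ran from -0.33 ± 0.36 for Zfp36 to 0.58 ± 0.61 for Atf3, with 0.57 ± 0.69 for Fosb, 0.06 ± 0.54 for Fos, -0.04 ± 0.39 for Jun and -0.06 ± 0.37 for Junb (edgeR adjusted p = 1.00 for each). Their median was -0.04, against 0.04 for all genes. Without the library labelled knockout replicate 3, 9 of the 10 were above 0, with a median of 0.25, and Jun had 0.28. Fosb was then the single member with an unadjusted p under 0.05, at 1.00 ± 0.31 and on the other side of 0 from batch 2 (edgeR adjusted p = 0.828). Without knockout replicate 2, all 10 were below 0, with a median of -0.21. Neither run is set beside all genes here, so a shift of the members cannot be told from one of all genes. In both runs 0 members were called, and DESeq2 and limma-voom each called 0 on the full batch.

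**Figure D3:**
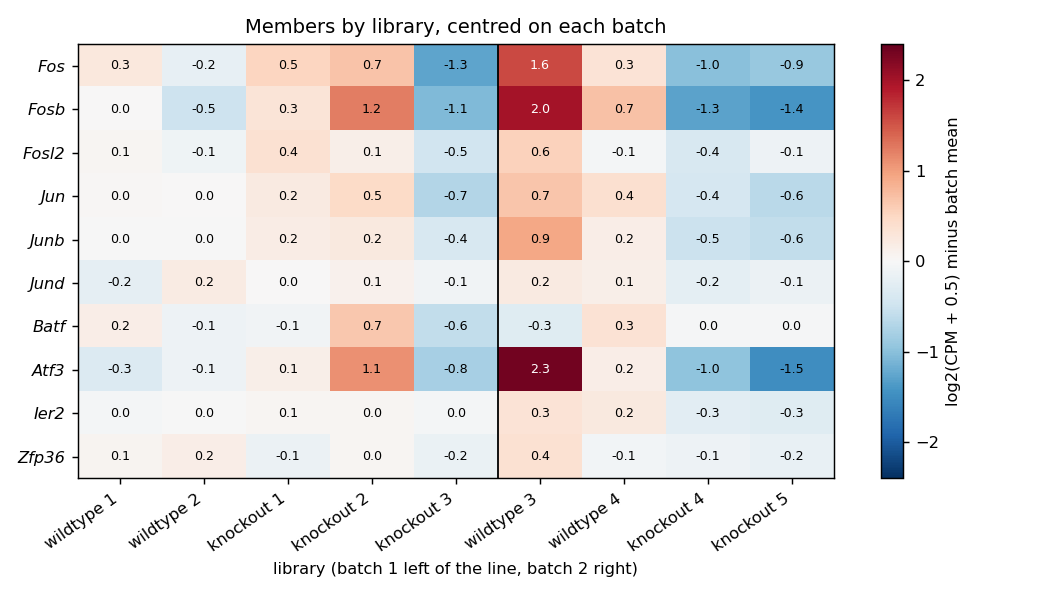
Log2(CPM + 0.5) of each member minus its mean over the libraries of the same batch, one column per library, red above and blue below the batch mean. The library labelled knockout replicate 3 in batch 1 and both knockout libraries in batch 2 are blue in most rows, wildtype replicate 3 is red in 9 rows, and the rows of Fosb, Fos and Atf3 have the deepest colours.

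Single libraries held the extremes of most members. In batch 1 the library labelled knockout replicate 2 was the highest for 6 members (Fos, Fosb, Jun, Junb, Batf and Atf3) and knockout replicate 3 was the lowest for 9, all but Jund. In batch 2 wildtype replicate 3 was the highest for 9, all but Batf, and the lowest places fell to the 2 knockout libraries for those 9. The members that spanned most in batch 1 were again wide in batch 2, with Batf the exception. From the highest to the lowest library, Fosb spanned 4.95-fold in batch 1 and 10.8-fold in batch 2, and Fos 3.89-fold and 6.13-fold. Jun spanned 2.24-fold and 2.50-fold, and Junb 1.54-fold and 2.86-fold. Fosl2 spanned 1.78-fold and 1.92-fold. Jund spanned 1.33-fold and 1.37-fold, Zfp36 1.25-fold and 1.46-fold, and Ier2 1.07-fold and 1.54-fold, the narrowest members. Batf spanned 2.39-fold in batch 1 and 1.56-fold in batch 2, and Atf3 4.27-fold in batch 1, with no ratio in batch 2 because of the library at 0.

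Summed over the 10 genes, the members took 0.270% and 0.286% of counts in the wildtype libraries of batch 1 and 0.296%, 0.338% and 0.216% in those labelled knockout. In batch 2 they took 0.343% and 0.260% in wildtype and 0.183% and 0.181% in knockout. The lowest of batch 1 was thus still above both knockout libraries of batch 2.

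With both batches in 1 model, all 10 log2 fold changes were below 0 (48.6% of all genes were), from -0.03 ± 0.23 for Batf to -1.99 ± 1.66 for Atf3, and 0 members passed, where edgeR called 0.00451% of 22197 genes. Fosb had -1.04 ± 0.99, Fos -0.92 ± 0.64, Junb -0.53 ± 0.27, Jun -0.48 ± 0.28 and Zfp36 -0.28 ± 0.13, each with an edgeR adjusted p of 1.00. Zfp36 was the single member with an unadjusted p under 0.05 (0.0469), against 2.36% of all genes, with -0.33 in batch 1 and -0.32 in batch 2. The median of the members was -0.38, and that of all genes 0.01. DESeq2 and limma-voom called 0 members here and in the interaction. The combined value mixes batches that differ, and the batch term cannot take up a genotype difference that depends on the batch.

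The interaction of batch and genotype asks whether the difference was the same in both batches. None of the 10 passed, where 0.00451% of 22197 genes did. At an unadjusted p under 0.05 there were 6 members with a more negative difference in batch 2, against 6.61% of all genes. They were Atf3 at -5.66 ± 1.73 (unadjusted p = 0.0076 in the edgeR fit), Fosb at -3.52 ± 1.04 (0.0125), Fos at -2.21 ± 0.92 (0.0471), Junb at -1.17 ± 0.39 (0.0114), Jun at -1.09 ± 0.44 (0.0328) and Ier2 at -0.56 ± 0.21 (0.0205), with edgeR adjusted p between 0.492 and 0.591. Batf, at -0.13 ± 0.48, and Zfp36, at -0.09 ± 0.26, lay nearest to 0. The median of the members was -0.85, and all genes had a median of -0.19. Without wildtype replicate 3 and knockout replicate 3, the libraries that stood at the ends of their batches, 1 member was called, Fosb at -3.09 ± 0.47 (edgeR adjusted p = 0.0486), where 0.0673% of genes were called. That pair was chosen after the values were seen.

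The members were then set beside genes of the same pathway, taking the first 3 genes of each list by name. None of these lists had a member past the threshold in batch 1, batch 2, the combined model or the interaction with edgeR, so what follows gives values. Among 18 other immediate early genes, 15 of the 17 tested in batch 2 were below 0, 7 of them at an unadjusted p under 0.05, with a median of -0.58. Of all genes tested, 52.2% were below 0 and 4.97% were lower at that p. Dusp1, the phosphatase that switches off MAP kinases, had -1.50 ± 0.40, Btg2, an antiproliferative early gene, -0.58 ± 0.15, and Ier5, a relative of Ier2, -0.28 ± 0.14. In batch 1 the list had a median of -0.08, with 12 of 18 below 0.

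Upstream of AP-1, the kinase and promoter-factor lists had medians near 0 in batch 2. In batch 1 their medians were -0.15 and -0.12, with 10 of 14 and 7 of 9 genes below 0, and that of all genes was 0.04. Of 14 MAP kinase genes, 5 were below 0 in batch 2 with a median of 0.05: Mapk8 (JNK1), whose product phosphorylates JUN, had 0.10 ± 0.20 and Mapk9 (JNK2) 0.18 ± 0.13. SRF, its partners and CREB factors act on the Fos promoter, and the list of 9 genes for them also holds Mef2d. Of these 9, 4 were below 0 in batch 2 with a median of 0.03. At an unadjusted p under 0.05 (edgeR), 3 of these 9 were higher and 0 lower, and 1 kinase gene was higher and 1 lower. Of all genes tested, 2.8% were higher and 4.97% lower at that p. Srf had 0.07 ± 0.13, Elk1 -0.14 ± 0.16 and Creb1 0.03 ± 0.10. Transcript levels of these genes say nothing of the phosphorylation by which they act.

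Among 16 other AP-1 and bZIP genes, 10 of the 14 tested in batch 2 were below 0 with a median of -0.12. Fosl1, the other FOS-related antigen, had -2.38 ± 0.75 at low levels, 2.35 and 0.955 CPM in wildtype against 0.382 and 0.256 CPM in knockout. Bach2, a bZIP repressor that keeps T cells naive and competes for AP-1 sites, had 0.49 ± 0.12, with 423 and 385 CPM in wildtype against 602 and 528 CPM in knockout. It was thus on the other side of 0 from 10 of 10 members. Its groups did not overlap, and 19.6% of all genes tested in batch 2 were higher in both knockout libraries. In batch 1 Bach2 overlapped, at 850 and 812 CPM in wildtype against 908, 800 and 724 CPM in those labelled knockout. Batf3 was too low to be tested. Of the partners, Irf4, which binds DNA with BATF, had -0.34 ± 0.20, Nfatc2 -0.10 ± 0.21 and Nfatc1 0.15 ± 0.21, and 4 of 5 in that list were below 0 with a median of -0.06.

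Of 8 mRNA decay factors related to ZFP36, 3 were below 0 in batch 2. Zfp36l1 had 0.07 ± 0.10, Zfp36l2 0.44 ± 0.13, and Zc3h12a, the nuclease regnase-1, -0.43 ± 0.13. Of 8 cytokine and inflammatory mRNAs with AU-rich elements, 6 were at most 2.44 CPM in every library of batch 2, so no count or median is given for the list. Tnf, a textbook target of ZFP36, had -0.36 ± 0.19 and Csf2 -2.10 ± 0.71, the latter at 0.916 and 2.44 CPM in wildtype against 0.366 and 0.403 CPM in knockout. Il2 had 12, 19, 8 and 0 counts in the libraries of batch 2, too few for a direction.

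**Figure D4:**
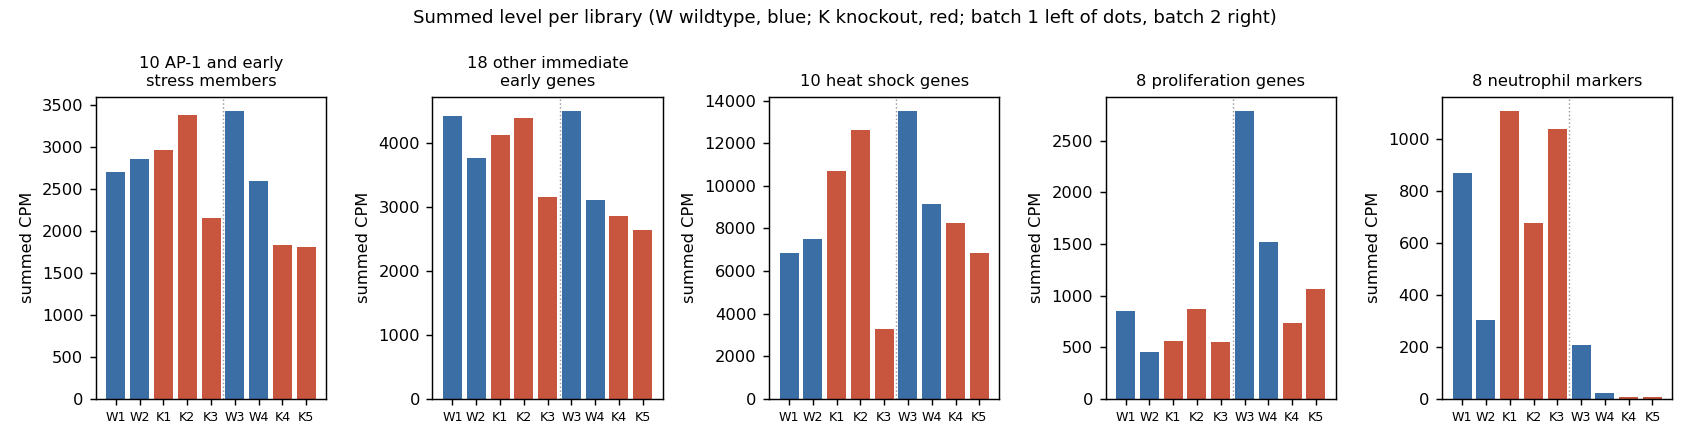
Summed CPM per library, on linear axes from 0, of the 10 members and of 4 other lists, with blue bars for wildtype (W), red bars for knockout (K) and a dotted line between the batches. In the first 3 panels K3 is the lowest bar of batch 1 and W3 the highest of batch 2, while the neutrophil panel has its high bars in batch 1, K3 among them.

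Other measures moved with the members across libraries, and their part in the results was not tested. The summed level of 10 heat shock genes was 6844 and 7516 CPM in the wildtype libraries of batch 1, 10685 and 12620 CPM in those labelled knockout replicates 1 and 2, and 3294 CPM in knockout replicate 3. In batch 2 it was 13511.5 and 9136 CPM in wildtype against 8258 and 6854 CPM in knockout. Hspa1a, an inducible HSP70, had -1.54 ± 0.27 in batch 2, Dnajb1, its co-chaperone, -0.69 ± 0.26, and the constitutive Hspa8 -0.12 ± 0.21. Hspa1a and its near copy Hspa1b share reads, so their split is uncertain.

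Proliferation genes also ran with genotype in batch 2. Their 8-gene sum was 2787 and 1517 CPM in wildtype against 734 and 1065 CPM in knockout, with Mki67 at -1.48 ± 0.50, Top2a at -0.95 ± 0.25 and Ccnb1 at -1.25 ± 0.31. In batch 1 the sum was 849 and 451 CPM in wildtype against 563, 872 and 553 CPM in those labelled knockout, so knockout replicate 3 was not the lowest there.

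Markers of other cells were present at levels that differed between libraries and batches. The 8 neutrophil markers summed to 205 and 22.8 CPM in the wildtype libraries of batch 2 and to 5.28 and 8.55 CPM in knockout, with 8, 7, 6 and 7 of them detected (Retnlg and Camp were at 0 in knockout replicate 4 and Ly6g in knockout replicate 5). In batch 1 they summed to 867 and 304 CPM in wildtype against 1106, 677 and 1037 CPM in those labelled knockout. The library labelled knockout replicate 3, lowest in 9 members, was thus among the 2 highest of the series for neutrophil markers. The 6 monocyte and macrophage markers were all detected in every library and summed to 78.6 and 97.5 CPM in wildtype against 52.4 and 56.1 CPM in knockout in batch 2, and to 51.4 to 185 CPM in batch 1. The 6 dendritic cell markers summed to 5.94 and 9.49 CPM against 2.61 and 3.81 CPM in batch 2, where 5, 4, 2 and 5 were detected, and to 12.8 to 40.6 CPM in batch 1. The 5 erythroid genes summed to 1499 CPM in wildtype replicate 3 and to 88.3 to 128 CPM in the other libraries of batch 2. The 5 B cell markers stood at 6.13 to 12.4 CPM in batch 2, the 4 NK cell markers at 28.5 to 69.6 CPM, and of the 2 CD8 T cell markers Cd8b1 stood at 10.6 to 11.5 CPM in batch 2, where Cd8a had 0 counts in 3 of the 4 libraries.

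The 5 genes whose batch-centred profile lay nearest to the mean profile of the members over the 9 libraries, out of 8173 candidates, were Arl4a, Mafk, Gadd45b, Dusp1 and Zfp367. Their root mean square differences from that mean were 0.159, 0.163, 0.172, 0.183 and 0.191 on the log2 scale, while Junb and Jun themselves lay at 0.102 and 0.110 and Fosb at 0.650. The members are part of that mean, so their own distances are smaller by construction. Mafk, a small bZIP protein of the MAF family, was at 127 and 131 CPM in wildtype against 167, 163 and 98.4 CPM in those labelled knockout in batch 1, and at 146 and 76.2 CPM against 64.5 and 59.7 CPM in batch 2. Gadd45b, a stress gene that acts on p38 and JNK signalling, was at 14.96 and 18.9 CPM in wildtype against 19.0, 26.4 and 9.67 CPM in batch 1, and at 22.8 and 20.1 CPM against 9.97 and 10.3 CPM in batch 2. Both had their lowest value of batch 1 in the library labelled knockout replicate 3.

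Between the batches, edgeR called Batf and Jund higher in batch 2, and the other 8 members did not pass the test. The batch term, fitted with genotype, thus called 2 of the 10 members, both higher in batch 2, where 64.1% of 22197 genes were called and 16.8% were called higher. On the log2 scale Batf was 0.93 ± 0.23 higher (edgeR adjusted p = 0.0050) and Jund 0.35 ± 0.13 (edgeR adjusted p = 0.0342). Batf had a mean of 33.3 CPM in batch 1 and 58.4 CPM in batch 2 in wildtype, and 34.8 and 54.6 CPM in knockout. For Jund the means were 737 and 929 CPM in wildtype, but 743 and 723 CPM in knockout, so its CPM was higher in wildtype only. The other 8 ran from -2.55 ± 1.68 for Atf3 to -0.06 ± 0.13 for Ier2. The median of the members was -0.23 and that of all genes -0.76. With upper-quartile scaling, which moved the median of all genes to -0.97, Jund had 0.15 (adjusted p = 0.358) and was no longer called, and Zfp36 was called at -0.43 (adjusted p = 0.0101). DESeq2 called 4 members, Jund, Batf, Atf3 and Zfp36, where it called 64.9% of genes. The batches differ in depth, in receptor-gene counts and in sex-linked transcripts, and these cannot be told apart from the batch.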

How the data were processed

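The deposited file holds expected counts, estimated per gene and library by the authors, not whole numbers and of unequal library totals. The submitters' processing notes name Salmon 1.2.0, R 4.0.3 and GRCm39 but assign them no step. The annotation, the strand setting and whether counts were scaled by transcript length were not given in the sources used here. Libraries were single-end, per the labels' protocols.

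Values were rounded to whole counts. Tests used edgeR 4.0.16 in R 4.3.3: robust quasi-likelihood fits, TMM scaling, the default filter by genotype (minimum count 10, minimum total 15), with Benjamini-Hochberg adjustment over all genes tested and a threshold of 0.05. Comparisons were knockout against wildtype within each batch and with a batch term, their interaction, and the batch term. Standard errors derive from the F statistic. CPM are counts over the library total, and logs add 0.5 CPM. A floor of 3 counts was 0.0430 to 0.609 CPM, for counting error only. In none of the 6 pairs of libraries of 1 genotype and batch did counts agree within sampling noise (chi-square per degree of freedom 6.43 to 188). Nothing in the labels says which samples are separate animals, so the p-values reflect sample-to-sample spread only, which may be technical.

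Named genes are the 10 members, Esr1, the first 3 genes of each pathway list, 4 marker genes (Cd4, Cd3e, S100a8, Lyz2) and the 5 genes nearest in profile (mean CPM of at least 10 in each batch). S100a8 was at 56.1 CPM in wildtype replicate 3 and 1.99 to 7.46 CPM in the rest of batch 2, and Lyz2 at 29.7 CPM and 4.58 to 6.39 CPM. One gene of the kinase list that this rule names is not reported here. Other genes were named after their values were seen. The members and lists were chosen with earlier results of these data known. The edgeR test was checked on simulated data. Alternatives were DESeq2 1.42.0, upper-quartile scaling, other filters, limma 3.58.1 (voom), no batch term, a replicate block and leaving out each sample.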

Additional observations from a re-analysis of the deposited data

How the results depend on the processing

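In batch 2 the number of members called by edgeR, 0, was 6 with DESeq2, 1 without a filter on low counts (Jun) and 0 to 8 when 1 library was left out. In the interaction it was 1 with wildtype replicate 3 and knockout replicate 3 both left out, a choice made after seeing the data. The batch term called 2 members, 4 with DESeq2, 1 with DESeq2 size factors in edgeR (added after seeing the data) and 1 to 3 with 1 library left out: Batf was called in all 9 of those runs and Jund in 7, all but those without wildtype replicate 1 and without knockout replicate 5. In batch 1 and the combined model it was 0 under every alternative run. Over all genes, batch 2 had 0 calls with edgeR, 329 with DESeq2, 34 without a filter, 268 without wildtype replicate 3 and 879 without wildtype replicate 4. Batch 1 had 31, and 6 with upper-quartile scaling, 12 with limma-voom, 56 with DESeq2 size factors in edgeR, 68 without a filter, 61 and 118 without wildtype replicates 1 and 2, and 67 with a replicate block. The combined model had 1 call and DESeq2 16, and the interaction 1 and DESeq2 165. Causes were not tested.

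Directions turned for members near 0. In batch 1, Fos had -0.061 with DESeq2 or its size factors in edgeR and -0.21 with limma-voom, and with upper-quartile scaling Fosl2 had 0.028 and Batf 0.0084. Leaving out 1 library of batch 1 gave ranges of -0.30 to 0.51 for Fos, -0.14 to 1.06 for Fosb, -0.28 to 0.24 for Fosl2, -0.33 to 0.28 for Jun, -0.24 to 0.18 for Junb, -0.20 to 0.035 for Jund, -0.52 to 0.30 for Batf, -0.15 to 0.97 for Atf3 and -0.27 to 0.061 for Ier2. In batch 2 Batf alone turned, with -0.34 to 0.22. In the combined model Batf ranged from -0.23 to 0.098, and Fosl2 had 0.054 with both doubted libraries left out. In the interaction, Batf ranged from -0.46 to 0.32 and Zfp36 from -0.31 to 0.24, with 0.022 for Zfp36 without a filter and 0.099 with both libraries left out. For the batch term, no filter gave 0.14 for Fosl2, 0.024 for Junb, 0.22 for Ier2 and 0.065 for Zfp36, the stricter filter 0.0074 for Fosl2 and 0.072 for Ier2, and leaving out 1 library -0.19 to 0.18 for Fosl2, -0.43 to 0.023 for Junb and -0.15 to 0.17 for Ier2.

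Wildtype and knockout libraries share replicate numbers 1, 2 and 4 within a batch. The labels give the numbers no meaning, so they were not taken as pairs. Deviations of same-numbered libraries from their group means correlated at 0.406, -0.432 and -0.112 across 22197 genes. In a group of 2 libraries the deviations mirror each other, so these values cannot show whether libraries were paired. With a replicate block, 0 members were called in batch 1 and 0 in the combined model. The block, fitted in batch 1 on replicates 1 and 2 alone, gave 0.25 for Fosl2, 0.28 for Jun, 0.18 for Junb, 0.037 for Jund, 0.23 for Batf and 0.038 for Ier2. In the combined model it gave 0.025 for Fosb, 0.080 for Fosl2 and 0.032 for Batf. A block could not be fitted within batch 2, where 1 number is shared. By Dixon's ratio (the gap at an end over the range), none of 22 sets of 4 or 5 libraries (each member and their mean, by genotype) held a lone far library. Both batches were pooled in each set, so a library far only within its own batch could be missed.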
